A study of Mus musculus with 24 samples.

Results

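The 10 genes described here are the transcription factor gene Srf and 9 genes of the actin cytoskeleton and the contractile apparatus that are widely described as its targets: Acta2, Tagln, Cnn1, Cnn2, Tpm1, Tpm2, Myl9, Vcl and Flna. They are listed by gene name, with earlier results of these data known, and are 10 of the 49315 genes in the count table. Bulk RNA sequencing was performed on MS03 cells, an immortalized mouse Schwann cell line whose floxed Nf2 alleles had been removed with Cre, so every group, the control included, is Nf2-/- and comes from this single line. Nf2 encodes merlin, the tumor suppressor lost in schwannoma. Cells received DMSO, the vehicle, or a drug against focal adhesion kinase (FAK, encoded by Ptk2) for 24 hours. Defactinib, VS-4718, GSK2256098 and IN10018 (named ifebemtinib in the study) inhibit the kinase activity of FAK and were each used at 1 μM. PROTAC FAK degrader 1 (PROTAC-3) at 1 μM, and GSK215 and BSJ-04-0146 at 0.1 μM, are PROTACs, bifunctional molecules that bring FAK to a ubiquitin ligase so that the protein is degraded. There were 3 biological replicates in each of the 8 groups, 24 libraries in all. The question addressed is how the expression of these genes differed between each drug and DMSO, and between drugs given at the same dose.

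SRF binds a DNA element called the CArG box. Its activity on cytoskeletal genes depends on the cofactors MRTF-A and MRTF-B, which are held by monomeric actin and released when actin assembles into filaments, while the ternary complex factors of the Elk family direct SRF to immediate-early genes. Integrin adhesions, where FAK resides, are a main input to filament assembly and to the tension carried by actin filaments. Smooth muscle actin (Acta2), transgelin (Tagln) and calponin 1 (Cnn1) are the classical SRF targets of smooth muscle, whereas filamin A (Flna), vinculin (Vcl), tropomyosin 1 (Tpm1) and calponin 2 (Cnn2) are expressed in many adherent cell types.

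The CArG box was searched for in the RefSeq promoter windows of GRCm38.p6, which run from 250 bases before to 50 bases after a gene's start, and which matched 9 of the 10 genes (all but Tagln). The motif was spelled as CC, then 6 bases that are each A or T, then GG, which reads the same way on both strands. It was present in 4 of the 9 windows, those of Srf, Cnn2, Myl9 and Vcl, against 535 of 32851 windows of all genes (1.63%). The 5 stretches that hold these boxes are shown because the box is the element that SRF binds. In each stretch capitals mark the box named beside it. The Srf stretches overlap, so each also holds the other Srf box in lowercase. All lie upstream of the start and are written 5′ to 3′ on the strand of the gene.
Srf, box 82 bases before the start, chr17:46556210-46556269, minus strand: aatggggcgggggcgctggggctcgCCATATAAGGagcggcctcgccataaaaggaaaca
Srf, box 62 bases before the start, chr17:46556190-46556249, minus strand: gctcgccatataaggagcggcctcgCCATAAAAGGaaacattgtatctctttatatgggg
Cnn2, box 56 bases before the start, chr10:79988519-79988578, plus strand: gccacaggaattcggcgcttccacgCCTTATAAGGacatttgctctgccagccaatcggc
Myl9, box 161 bases before the start, chr2:156775278-156775337, plus strand: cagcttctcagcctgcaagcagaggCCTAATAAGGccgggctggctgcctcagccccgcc
Vcl, box 227 bases before the start, chr14:20929148-20929205, plus strand: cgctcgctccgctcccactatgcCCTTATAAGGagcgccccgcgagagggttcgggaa
The core GGAATG of the element read by TEAD factors, searched on both strands (CATTCC on the other), was present in the windows of Acta2, Tpm1, Vcl and Flna, also 4 of 9, against 4817 of 32851 windows (14.7%). Vcl was the only one of the 9 windows with both motifs, which lie at 227 and 143 bases before its start and share no base. These matches describe the letters of the windows and not binding. Only these exact spellings within these windows were searched. A site with another base, or outside the window, would have been missed, so a window without a match does not show that the gene lacks one.

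The libraries held 14472462 to 27449516 counts, with a median of 22606532.5, and were smallest for GSK215 (14472462 to 19331704) and BSJ-04-0146 (16112245 to 17794597). Levels are given as counts per 1e6 counts (CPM) of library sizes scaled by TMM. The Schwann cell markers Sox10, Ngfr, Ncam1 and Erbb3 were expressed, while S100b and Gfap stayed at 18 counts or fewer in any library. The summed level of these 6 markers was 87.8 to 91.6 CPM with DMSO, 250.4 to 257.9 CPM with GSK215, 211 to 235 CPM with BSJ-04-0146, 138 to 154 CPM with VS-4718, 120 to 131 CPM with defactinib, 102 to 113 CPM with GSK2256098, 83.0 to 88.3 CPM with IN10018 and 80.3 to 83.9 CPM with PROTAC FAK degrader 1. In the DMSO libraries Ncam1 made up most of the sum, at a mean of 55.5 of 89.8 CPM. With PROTAC FAK degrader 1 the markers moved in different directions, since Ngfr (-1.09) and Sox10 (-0.73) fell and Erbb3 rose (0.63, log2 fold changes). With GSK215, Ngfr (2.63), Erbb3 (2.55) and Sox10 (2.28) rose, as did Ncam1 (0.34), and with BSJ-04-0146 the same genes rose by 2.28, 2.37 and 2.28, while Ncam1 did not pass (0.02). Ngfr, Erbb3 and Sox10 also rose with VS-4718 (1.76, 1.53 and 1.22), defactinib (0.65, 1.03 and 0.56) and GSK2256098 (0.77, 0.78 and 0.46). IN10018 changed none of them past the threshold. Ncam1 rose with defactinib (0.36) and fell with IN10018 (-0.155). Of 6 smooth muscle markers that are not among the 10 genes, Kcnmb1 was at 0 and Myh11 at 6 counts or fewer in every library, and the sum of the list (119 to 171 CPM) was almost wholly Smtn, at a mean of 141 CPM. Smtn rose with PROTAC FAK degrader 1 (0.20) and VS-4718 (0.10) and fell with GSK215 (-0.17) and BSJ-04-0146 (-0.21). Des, at 0.68 CPM with DMSO, rose with PROTAC FAK degrader 1 (1.25), GSK215 (1.14) and BSJ-04-0146 (1.83, log2 fold changes). The defining pericyte markers Rgs5, Kcnj8 and Abcc9, the fibroblast markers Dpt, Lum and Dcn, and the macrophage markers Ptprc and Adgre1 did not exceed 3 counts in any library. The summed levels of these 3 lists ranged from 21.9 to 67.4 CPM for pericyte markers, mostly Pdgfrb, from 9.29 to 29.4 CPM for fibroblast markers, mostly Pdgfra, and from 3.71 to 12.0 CPM for macrophage markers, mostly Cd68. Pdgfrb rose with every drug but IN10018, most with GSK215 (1.52 ± 0.06, adjusted p = 1.5e-23) and BSJ-04-0146 (0.97), then with VS-4718 (0.67), defactinib (0.54), PROTAC FAK degrader 1 (0.39) and GSK2256098 (0.29). Pdgfra rose with GSK215 (1.09) and BSJ-04-0146 (1.07) and fell with PROTAC FAK degrader 1 (-0.50). Cd68 rose with PROTAC FAK degrader 1 (1.70 ± 0.12 on the log2 scale, adjusted p = 6.9e-16), BSJ-04-0146 (1.17), GSK215 (0.82) and VS-4718 (0.42). Csf1r, the other macrophage marker with enough counts to test, came to -0.62 with PROTAC FAK degrader 1 (adjusted p = 0.252) and rose with BSJ-04-0146 (1.11, adjusted p = 0.0142). The part of these markers in the changes described next was not tested.

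In the DMSO libraries the 10 genes spanned a wide range of levels. Compared per kilobase of exon, Flna stood at 169 ± 1.76 CPM per kb (SD, n = 3), Tpm1 at 96.6 ± 2.01, Cnn2 at 29.4 ± 1.36, Srf itself at 21.9 ± 0.67, Vcl at 19.9 ± 0.62, and Tpm2 at 5.72 ± 0.42. Myl9, which encodes a regulatory light chain of non-muscle and smooth muscle myosin, was far lower at 0.71 ± 0.34 CPM per kb. The 3 smooth muscle genes were lowest of all, with Tagln at 0.155 ± 0.059, Cnn1 at 0.051 ± 0.013 and Acta2 at 0.0063 ± 0.011 CPM per kb. Thus the widely expressed targets were present, while Acta2, Tagln and Cnn1 were at or near the limit of detection.

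Acta2 (ENSMUSG00000035783, chr19:34241090-34255590 in GRCm38) was given 26 counts over all 24 libraries, at most 4 in any one, and 0 in 10 of them. DMSO libraries held 0, 0 and 1 counts, VS-4718 libraries 2, 0 and 4, and IN10018 libraries 0, 3 and 2. Cnn1 (ENSMUSG00000001349, chr9:22099216-22109630) was given 103 counts in all, from 1 to 8 per library. No group stood apart for either gene, and both were below the minimum count for testing, so that 8 of the 10 genes were tested. Without the filter neither passed in any of 18 comparisons: the lowest adjusted p was 0.401 for Acta2 and 0.216 for Cnn1, and no unadjusted p was under 0.05 (edgeR). No difference in these genes was detected, and at these counts a small one could not be resolved.

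**Figure D1:**
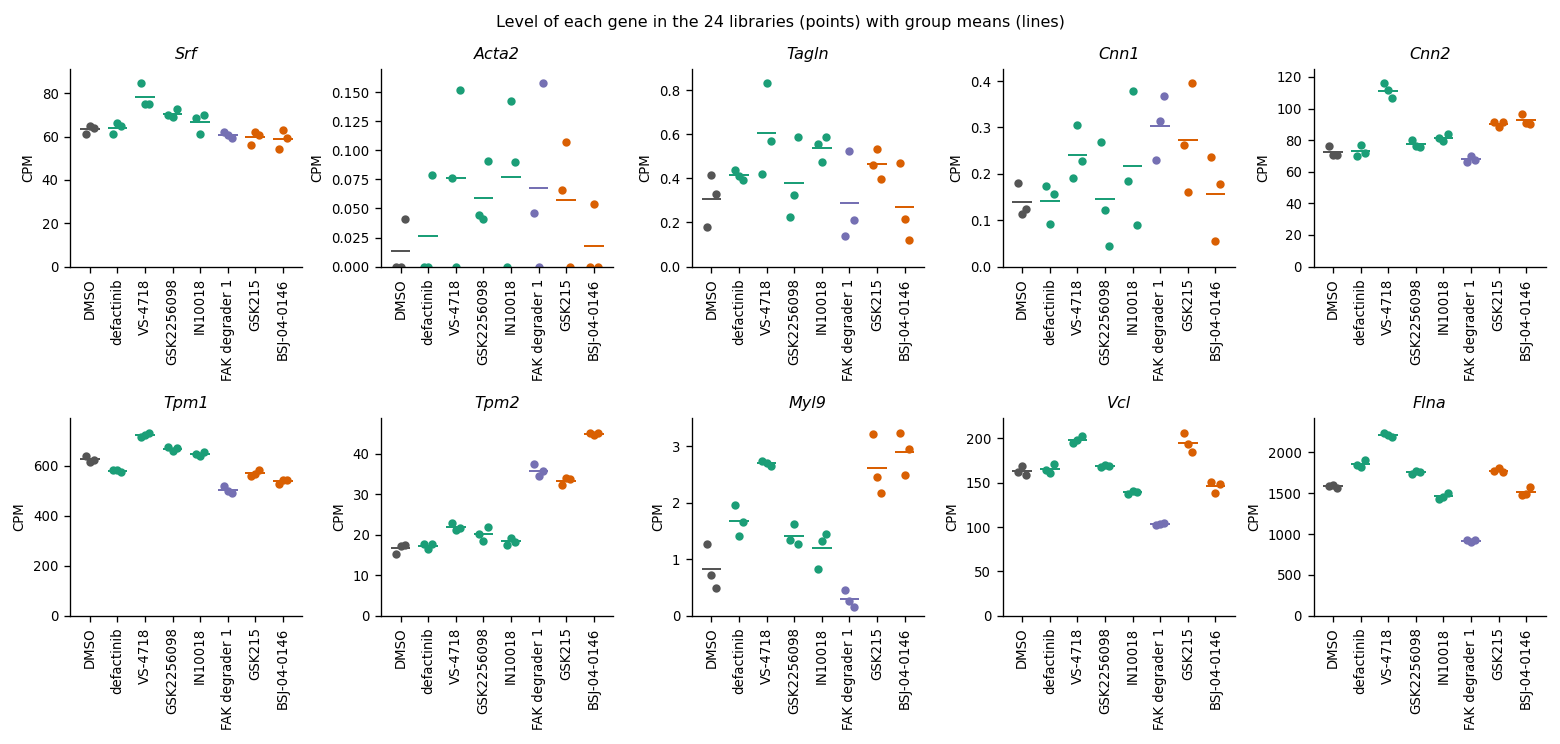
Level of each of the 10 genes in CPM (vertical axis, starting at 0) in the 24 libraries by treatment (horizontal axis), with points for libraries and lines for means of 3. Gray marks DMSO, green the kinase inhibitors at 1 μM, purple PROTAC FAK degrader 1 at 1 μM and orange the degraders at 0.1 μM. Flna was lowest with PROTAC FAK degrader 1 (908 to 931 CPM) and highest with VS-4718 (2189 to 2243 CPM), while Acta2 and Cnn1 stayed below 0.4 CPM in every library.

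Against DMSO, VS-4718 and GSK2256098 raised most of the tested genes and lowered 0, and GSK215 raised most and lowered 1. The other drugs, PROTAC FAK degrader 1 included, changed genes in both directions. With VS-4718, 7 of the 8 tested genes rose and none fell, where 20.4% of all 16070 tested genes rose and 18.9% fell (edgeR's quasi-likelihood test, Benjamini-Hochberg adjusted p under 0.05, as in all calls that follow). With GSK2256098, 5 rose and 0 fell (6.36% and 6.09% of all genes), a count that was 1 without GSK2256098 replicate 3, 2 without its replicate 1 or without DMSO replicate 2 or 3, and 3 without its replicate 2. GSK215 raised 5 and lowered 1 (27.4% and 27.2%), and BSJ-04-0146 raised 3 and lowered 3 (27.7% and 26.9%). With PROTAC FAK degrader 1, 1 rose and 4 fell (34.1% and 32.7%). Defactinib raised 2 and lowered 1 (11.4% and 11.0%), and IN10018 raised 1 and lowered 2 (6.44% and 6.85%). With only 8 genes, the counts of defactinib, BSJ-04-0146 and PROTAC FAK degrader 1 lie near these shares. Median log2 fold changes over the 8 genes were 0.44 with VS-4718, 0.29 with GSK215, 0.15 with GSK2256098, 0.10 with IN10018, 0.04 with defactinib, -0.09 with BSJ-04-0146 and -0.23 with PROTAC FAK degrader 1, and the median over all tested genes lay between 0.00 and 0.02. All 7 comparisons share the same 3 DMSO libraries. In bulk RNA, a change in RNA per cell and a change in the share of cells that express a gene cannot be told apart. With library totals in place of TMM, the median of all genes moved from 0.02 to 0.14 for GSK215 and from 0.02 to 0.13 for BSJ-04-0146, and the calls became 5 higher and 0 lower for GSK215 and 3 higher and 1 lower for BSJ-04-0146. That scaling also changed the split of calls over all genes, from 4407 higher and 4379 lower to 6190 and 2867 for GSK215, and from 4451 and 4320 to 6018 and 2966 for BSJ-04-0146.

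**Figure D2:**
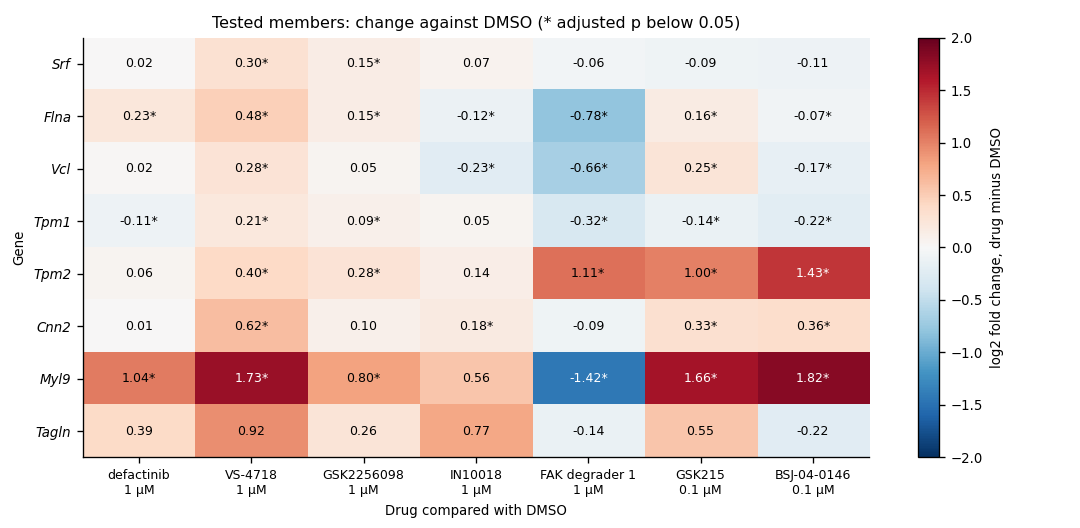
Log2 fold change against DMSO (color, from blue for lower to red for higher, value printed in each cell) for the 8 tested genes (rows) and 7 drugs (columns, with dose); an asterisk marks an adjusted p under 0.05. The column of VS-4718 holds positive values only, from 0.21 for Tpm1 to 1.73 for Myl9, and Tpm2 is above 1 in the columns of all 3 degraders (1.11, 1.00 and 1.43).

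Srf (ENSMUSG00000015605, chr17:46548329-46556175), the regulator itself, varied little. Its level in the DMSO libraries was 61.3, 65.0 and 64.2 CPM. With VS-4718 it was 84.6, 74.9 and 75.1 CPM, all above DMSO, a rise of 0.30 ± 0.05 (log2, SE; 1.23-fold; adjusted p = 5.1e-06). GSK2256098 gave 69.9, 69.2 and 72.5 CPM, also all above DMSO, a rise of 0.15 ± 0.05 (adjusted p = 0.0445). That second call sits at the threshold: it was lost with DESeq2 (adjusted p = 0.0697), with limma-trend (0.0612), and when any one of the 6 libraries was left out (0.0692 to 0.207). The other 5 drugs did not pass, with log2 fold changes of 0.02 (defactinib), 0.07 (IN10018), -0.06 (PROTAC FAK degrader 1), -0.09 (GSK215) and -0.11 (BSJ-04-0146), and the 95% intervals of the degraders reached down to -0.17, -0.20 and -0.21. With BSJ-04-0146 Srf passed without the filter on low counts (-0.13, adjusted p = 0.0214) and without BSJ-04-0146 replicate 2 (-0.16, adjusted p = 0.022). For the degraders the direction itself depended on scaling, since library totals gave 0.02, 0.03 and 0.003.

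Flna and Vcl, which connect actin filaments to each other and to adhesions, changed in a like way across the 24 libraries, with a Pearson correlation of their log2(CPM + 4) levels of 0.94, a description of libraries that share 8 treatments. Flna (ENSMUSG00000031328, chrX:74223461-74249820) encodes filamin A, which crosslinks actin filaments and binds integrin tails. Its DMSO libraries stood at 1589, 1602 and 1569 CPM. Libraries of PROTAC FAK degrader 1 were at 931, 908 and 924 CPM, 58.0% of the DMSO mean, and far below every other library of the series. The fall was 0.78 ± 0.03 on the log2 scale (adjusted p = 1.2e-24). VS-4718 libraries reached 2243, 2220 and 2189 CPM, a 1.40-fold rise (0.48 ± 0.03, adjusted p = 6.8e-17), and were the highest of the 24. Smaller rises were measured with defactinib (1844, 1827 and 1912 CPM; 0.23 ± 0.03, adjusted p = 1.1e-07), GSK215 (1775, 1806 and 1755 CPM; 0.16 ± 0.03, adjusted p = 5.1e-06) and GSK2256098 (1737, 1776 and 1760 CPM; 0.15 ± 0.03, adjusted p = 3.4e-04), and in each of these groups all libraries lay above DMSO. IN10018 libraries, at 1431, 1454 and 1502 CPM, all lay below DMSO (-0.12 ± 0.03, adjusted p = 0.00406). BSJ-04-0146 libraries, at 1482, 1490 and 1573 CPM, overlapped with DMSO, and the call of -0.07 ± 0.03 (adjusted p = 0.0467) ended with limma-trend (0.072), in a fit of the 6 libraries compared (0.116) and when DMSO replicate 1 or 2 or BSJ-04-0146 replicate 1 or 2 was left out (0.0756 to 0.166), and turned to 0.04 with library totals.

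Vcl (ENSMUSG00000021823, chr14:20929398-21033676) encodes vinculin, the adaptor that couples talin to actin at focal adhesions. Its DMSO libraries stood at 162, 169 and 159 CPM. With PROTAC FAK degrader 1 they were at 102.5, 103.5 and 104.5 CPM, 63.4% of the DMSO mean, and below every other library (-0.66 ± 0.04, adjusted p = 1.2e-18). With IN10018 Vcl also fell, to 137, 140.5 and 140 CPM (-0.23 ± 0.04, adjusted p = 1.8e-05). VS-4718 raised it to 194, 198 and 202 CPM (0.28 ± 0.04, adjusted p = 2.5e-08), and GSK215 to 206, 194 and 184 CPM (0.25 ± 0.04, adjusted p = 1.2e-07), and in both groups all libraries exceeded DMSO. The 2 degraders at 0.1 μM went in opposite directions, since BSJ-04-0146 libraries, at 151, 138 and 148 CPM, all lay below DMSO (-0.17 ± 0.04, adjusted p = 1.9e-04), a call lost with library totals (-0.06, adjusted p = 0.209). Defactinib and GSK2256098 did not pass, with 0.02 (95% interval -0.05 to 0.09) and 0.05 (-0.02 to 0.12). Vcl shares 2090 exonic bases with Ap3m1 on the opposite strand, and without a stated strand setting their reads cannot be told apart there. Ap3m1, at a mean of 66.0 CPM, fell with PROTAC FAK degrader 1 (-0.40) and BSJ-04-0146 (-0.29, adjusted p = 1.8e-06), as Vcl did, and with GSK215 (-0.35) and VS-4718 (-0.16), where Vcl rose. Its part in the Vcl values was not tested.

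The tropomyosins coat actin filaments and set which other proteins bind them, and Tpm1 and Tpm2 moved in opposite directions with the degraders. The family members Tpm3 and Tpm4, which are not among the 10 genes and were named after their values were seen, fell with PROTAC FAK degrader 1 (-0.42 and -0.21), GSK215 (-0.41 and -0.27) and BSJ-04-0146 (-0.36 and -0.21). Tpm1 (ENSMUSG00000032366, chr9:67022590-67049406) stood at 641, 616 and 622 CPM with DMSO. In the libraries of PROTAC FAK degrader 1 it was 519, 498 and 493 CPM (-0.32 ± 0.03, adjusted p = 1.4e-12), BSJ-04-0146 gave 527, 543 and 545 CPM (-0.22 ± 0.03, adjusted p = 2.4e-08), and GSK215 gave 558, 568 and 583 CPM (-0.14 ± 0.03, adjusted p = 9.6e-05). All 9 degrader libraries lay below the 3 DMSO libraries, although with library totals the GSK215 change was -0.01 (adjusted p = 0.696). Of the kinase inhibitors, defactinib lowered Tpm1 (-0.11 ± 0.03, adjusted p = 0.00455), VS-4718 raised it to 715, 725 and 733 CPM (0.21 ± 0.03, adjusted p = 1.2e-07), GSK2256098 raised it (0.09 ± 0.03, adjusted p = 0.0226, lost without the filter on low counts at 0.11 and without DMSO replicate 2 or 3 or GSK2256098 replicate 1 or 3 at 0.0905 to 0.128), and IN10018 did not pass (0.05, 95% interval -0.01 to 0.11). Tpm1 has many isoforms from alternative exons and promoters, which counts per gene do not separate.

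Tpm2 (ENSMUSG00000028464, chr4:43514711-43523765) separated the degraders from all other groups. Its DMSO libraries stood at 15.2, 17.2 and 17.6 CPM. BSJ-04-0146 gave 45.3, 44.6 and 45.1 CPM, a 2.70-fold rise (1.43 ± 0.06, adjusted p = 3.3e-22). PROTAC FAK degrader 1 gave 37.4, 34.6 and 35.7 CPM, a 2.15-fold rise (1.11 ± 0.06, adjusted p = 5.3e-19), and GSK215 gave 32.4, 34.1 and 33.8 CPM, a 2.01-fold rise (1.00 ± 0.06, adjusted p = 6.5e-17). The 9 degrader libraries all lay above the 15 others, which did not exceed 23.0 CPM. Among the kinase inhibitors, VS-4718 changed it by 0.40 ± 0.06 (23.0, 21.2 and 21.7 CPM, adjusted p = 2.4e-06) and GSK2256098 by 0.28 ± 0.06 (20.3, 18.5 and 22.1 CPM, adjusted p = 0.0027, and 0.0553 without GSK2256098 replicate 3), while defactinib (0.06, 95% interval -0.08 to 0.19) and IN10018 (0.14, 0.00 to 0.27, adjusted p = 0.176) did not pass. Per kilobase, Tpm2 amounted to 5.93 ± 0.55% of Tpm1 with DMSO and to 6.33 to 6.77% with the kinase inhibitors. The corresponding values were 13.1 ± 0.25% with GSK215, 15.9 ± 0.37% with PROTAC FAK degrader 1 and 18.6 ± 0.44% with BSJ-04-0146 (SD, n = 3). Tpm1 remained the more abundant of the 2 in every library.

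**Figure D3:**
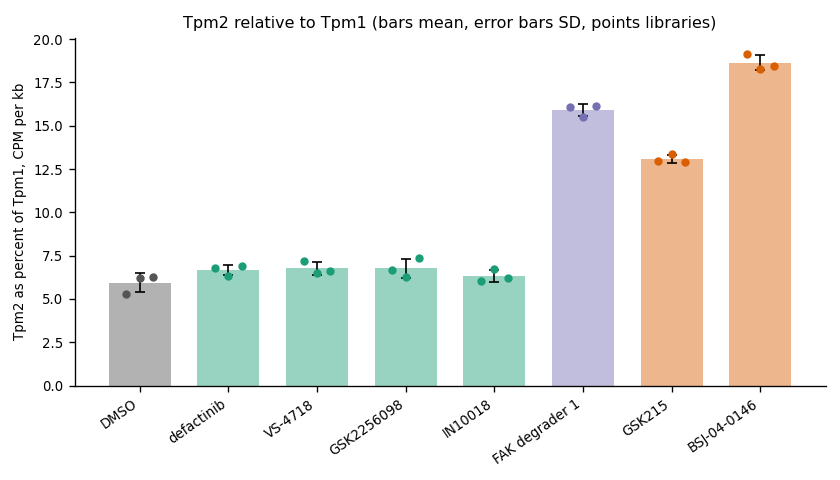
Tpm2 level as a percent of the Tpm1 level, both in CPM per kilobase of exon (vertical axis, starting at 0), by treatment; bars are means, error bars SD and points the 3 libraries. The degraders lie at 12.9 to 19.1% and the DMSO and kinase inhibitor libraries at 5.30 to 7.34%; the degraders were given at different doses (PROTAC FAK degrader 1 at 1 μM, GSK215 and BSJ-04-0146 at 0.1 μM).

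Calponins bind actin filaments and restrain myosin, and of the 2 calponin genes among the 10, Cnn2 (ENSMUSG00000004665, chr10:79988584-79996062) was the one with enough counts to test. Its DMSO libraries stood at 76.2, 70.4 and 70.4 CPM. VS-4718 gave 116, 111.5 and 107 CPM, the highest of the 24 libraries and a 1.54-fold rise (0.62 ± 0.04, adjusted p = 1.3e-15). BSJ-04-0146 gave 96.8, 90.7 and 90.1 CPM (0.36 ± 0.04, adjusted p = 3.1e-09), GSK215 gave 91.3, 88.6 and 91.7 CPM (0.33 ± 0.04, adjusted p = 2.4e-08), and IN10018 gave 81.2, 79.7 and 84.1 CPM (0.18 ± 0.04, adjusted p = 0.00347). In these 4 groups all libraries exceeded DMSO. The related gene Cnn3, which is not among the 10 and was named after its values were seen, stood at 346 CPM with DMSO and fell with GSK215 (-0.33 ± 0.03, adjusted p = 3.2e-12) and BSJ-04-0146 (-0.23 ± 0.03, adjusted p = 1.5e-08), where Cnn2 rose. It also fell with defactinib (-0.16) and PROTAC FAK degrader 1 (-0.08). For Cnn2, defactinib (0.01, 95% interval -0.07 to 0.10) and GSK2256098 (0.10, 0.01 to 0.18, adjusted p = 0.135) did not pass. With PROTAC FAK degrader 1 the 3 libraries (66.0, 70.0 and 67.8 CPM) lay just below DMSO, and the change of -0.09 ± 0.04 had an adjusted p of 0.0671, which passed when only the 6 libraries compared were fitted (0.0324) or PROTAC FAK degrader 1 replicate 2 was left out (0.0486).

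Myl9 (ENSMUSG00000067818, chr2:156775420-156781658) had the largest fold changes of the 8 genes at low absolute levels, from 3 to 72 counts per library. DMSO libraries held 28, 19 and 12 counts (1.27, 0.714 and 0.494 CPM). With BSJ-04-0146 they held 55, 46 and 50 counts (3.24, 2.49 and 2.95 CPM), a 3.54-fold rise (1.82 ± 0.25, adjusted p = 8.1e-08). VS-4718, with 72, 62 and 70 counts, gave a 3.31-fold rise (1.73 ± 0.25, adjusted p = 3.0e-07), and GSK215, with 49, 46 and 44 counts from its smaller libraries, a 3.17-fold rise (1.66 ± 0.26, adjusted p = 6.8e-07). Fewer were found with PROTAC FAK degrader 1, at 10, 5 and 3 counts, 37.3% of the DMSO level (-1.42 ± 0.39, adjusted p = 0.00143). Every library of these 4 groups lay outside the DMSO range. Defactinib raised Myl9 (45, 31 and 42 counts; 1.04 ± 0.27, adjusted p = 0.00343). GSK2256098 overlapped with DMSO, and its call (0.80 ± 0.27, adjusted p = 0.0482) was lost with DESeq2 (0.0586), with limma-trend (0.0714), without the filter (0.0526) and on leaving out any of 5 of the 6 libraries (0.0694 to 0.27). IN10018 did not pass (0.56 ± 0.28, adjusted p = 0.206), though it did without DMSO replicate 1 (0.0396).

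Tagln (ENSMUSG00000032085, chr9:45929619-45936058), which encodes the actin-bundling protein transgelin, held 2 to 19 counts per library and passed in none of the 7 comparisons with DMSO by edgeR, DESeq2 or limma-trend, although 1 unadjusted p from edgeR was under 0.05. DMSO libraries held 4, 11 and 8 counts, VS-4718 libraries 11, 19 and 15, and BSJ-04-0146 libraries 8, 4 and 2. The estimate for VS-4718 was 0.92 (95% interval 0.06 to 1.78, adjusted p = 0.0822), and the intervals of the others were as wide. Its exons overlap those of the antisense gene Gm48529 by 1241 bases and those of Pcsk7 by 108 bases, so the few reads cannot be assigned to Tagln with certainty. Gm48529 itself held 6 to 31 counts.

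The 5 drugs given at 1 μM form 10 pairs, and the degraders at 0.1 μM form 1, with p-values adjusted over all genes and all 11 pairs together. VS-4718 exceeded defactinib in 7 of the 8 tested genes and was lower in 0 (35.5% of all genes differed in either direction). Against VS-4718, GSK2256098 was lower in 6 (30.0%) and IN10018 in 7 (41.2%), with none higher. Thus VS-4718 gave higher levels than each of the other kinase inhibitors across most of these genes. GSK2256098 and defactinib differed in 4, with 3 higher and 1 lower (17.9%), a count that was 2 without defactinib replicate 3 and 2 without GSK2256098 replicate 3. IN10018 was higher than defactinib in 2 and lower in 2 (36.0%), and lower than GSK2256098 in 2 (24.9%). PROTAC FAK degrader 1 was lower in 4 and higher in 1 against defactinib (66.6%), and lower in 6 and higher in 1 against VS-4718 (66.5%), GSK2256098 (65.5%) and IN10018 (61.4%). In each of those 4 pairs the gene that was higher was Tpm2. Between BSJ-04-0146 and GSK215, 1 gene was higher and 3 were lower with BSJ-04-0146 (25.9%).

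The order of Flna levels at 1 μM was VS-4718, defactinib, GSK2256098, IN10018 and PROTAC FAK degrader 1, and all 10 pairs passed with edgeR. The closest neighbors, GSK2256098 and defactinib, differed by -0.08 ± 0.03 (adjusted p = 0.0174, and 0.0619 without the filter on low counts, 0.105 without defactinib replicate 3 or 0.0628 without GSK2256098 replicate 1), and the extremes, PROTAC FAK degrader 1 and VS-4718, by -1.27 ± 0.03 (adjusted p = 8.1e-31). For Vcl the order was VS-4718, GSK2256098, defactinib, IN10018 and PROTAC FAK degrader 1, where GSK2256098 and defactinib were not told apart (0.03, 95% interval -0.04 to 0.10). Tpm1 ran from VS-4718 through GSK2256098 and IN10018, which were not told apart (IN10018 minus GSK2256098 -0.05, -0.10 to 0.01), to defactinib and PROTAC FAK degrader 1. Tpm2 was highest with PROTAC FAK degrader 1, by 0.71 ± 0.06 over VS-4718, the next (adjusted p = 2.3e-13), and by 1.05 ± 0.06 over defactinib, the lowest (adjusted p = 7.3e-18). For Cnn2 VS-4718 stood above IN10018, the next, by 0.45 (IN10018 minus VS-4718 -0.45 ± 0.04, adjusted p = 3.8e-12), and no further neighbors in the order IN10018, GSK2256098, defactinib and PROTAC FAK degrader 1 were told apart. For Srf VS-4718 stood above GSK2256098 (GSK2256098 minus VS-4718 -0.15 ± 0.05, adjusted p = 0.0127, and 0.0511 to 0.218 without VS-4718 replicate 1 or GSK2256098 replicate 1 or 2), and the next neighbors were not told apart. GSK2256098 minus defactinib also passed for Srf (0.14 ± 0.05, adjusted p = 0.0295), a call lost without defactinib replicate 1 or 3 or GSK2256098 replicate 3 (0.051 to 0.147). PROTAC FAK degrader 1 minus IN10018 came to -0.13 ± 0.05 for Srf (adjusted p = 0.0457), a call lost with library totals (0.429), DESeq2 (0.0595), limma-trend (0.0545), the replicate block (0.0558) and on leaving out any of 5 of the 6 libraries (0.0597 to 0.237). In Myl9, PROTAC FAK degrader 1 minus IN10018, its nearest neighbor, came to -1.98 ± 0.37 (adjusted p = 1.9e-05), and VS-4718 minus defactinib to 0.69 ± 0.22 (adjusted p = 0.00941, and 0.0549 without defactinib replicate 2). No pair passed for Tagln by edgeR, DESeq2 or limma-trend, with 1 of 11 unadjusted p-values from edgeR under 0.05.

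At 0.1 μM, BSJ-04-0146 gave lower Vcl than GSK215 (-0.42 ± 0.04, 74.9% of its level, adjusted p = 1.7e-12), lower Flna (-0.23 ± 0.03, adjusted p = 8.5e-09) and slightly lower Tpm1 (-0.08 ± 0.03, adjusted p = 0.0191, and 0.0972 without GSK215 replicate 3 or 0.0839 without BSJ-04-0146 replicate 1), but higher Tpm2 (0.43 ± 0.06, a 1.34-fold difference, adjusted p = 4.6e-08). For Vcl, Flna, Tpm1 and Tpm2 the libraries of these groups did not overlap. Cnn2 (0.03, 95% interval -0.06 to 0.12), Srf (-0.02, -0.13 to 0.10), Myl9 (0.16, -0.29 to 0.61) and Tagln (-0.77, -1.83 to 0.28) did not pass. PROTAC FAK degrader 1 was given at a higher dose than the other degraders, so it was not tested against them. Statements that set the libraries of all groups side by side span both doses.

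**Figure D4:**
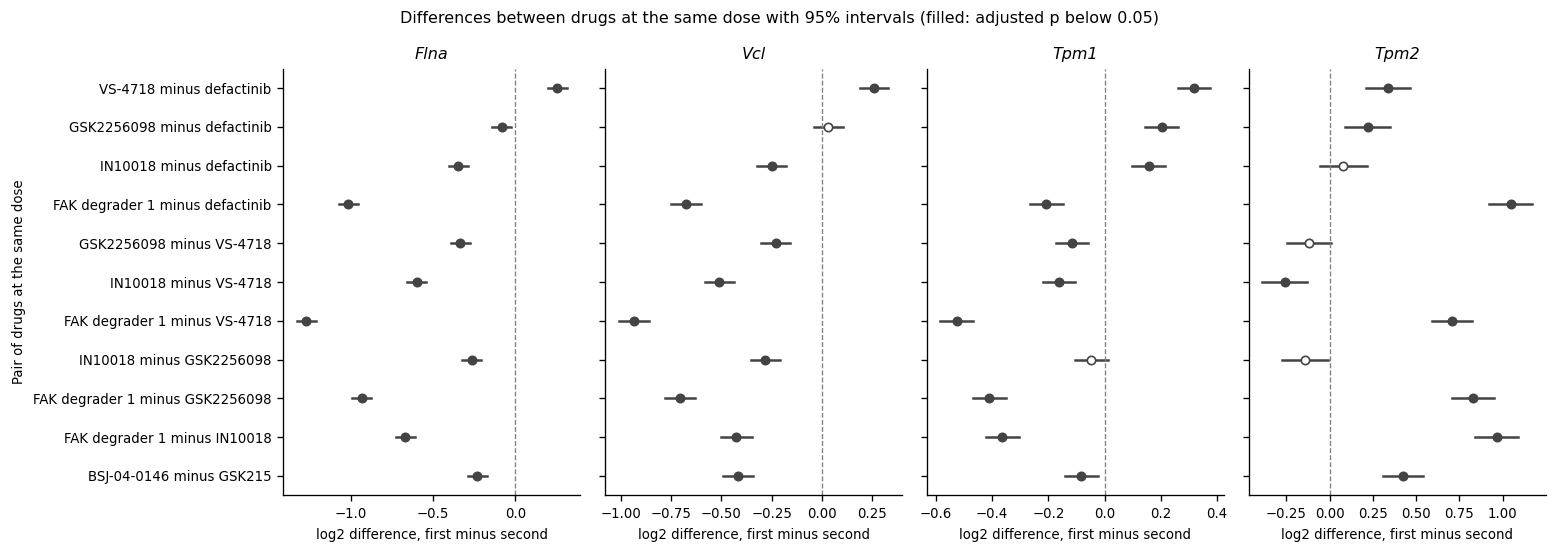
Differences in Flna, Vcl, Tpm1 and Tpm2 (log2, first drug minus second, horizontal axis) for the 11 pairs of drugs at the same dose (vertical axis), with 95% intervals as lines; filled points have an adjusted p under 0.05. In the 4 pairs with PROTAC FAK degrader 1, Flna, Vcl and Tpm1 lie below 0 and Tpm2 above it, with Flna from -1.27 to -0.67 and Tpm2 from 0.71 to 1.05.

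The cofactors that direct SRF to its targets also differed between treatments at the RNA level, although their activity is mainly set by their location and phosphorylation. Myocd, the cofactor of smooth and cardiac muscle, had 0 counts in every library. Mrtfa (listed as Mkl1 in the table) was 52.0 CPM with DMSO and rose with VS-4718 (71.4 CPM; 0.46 ± 0.04, adjusted p = 2.2e-11), BSJ-04-0146 (68.0 CPM; 0.39 ± 0.04, adjusted p = 1.2e-09), GSK215 (63.7 CPM; 0.29 ± 0.04, adjusted p = 5.5e-07) and GSK2256098 (0.16 ± 0.04, adjusted p = 0.0114). It fell with PROTAC FAK degrader 1 (43.1 CPM; -0.27 ± 0.05, adjusted p = 2.4e-06). Mrtfb, the paralog, passed with no drug, with log2 fold changes from -0.07 to 0.12. Of the ternary complex factors, Elk3 fell most with PROTAC FAK degrader 1, from 110 to 59.5 CPM (-0.89 ± 0.04, adjusted p = 5.9e-22), Elk4 fell most with BSJ-04-0146 (-0.43 ± 0.05, adjusted p = 3.7e-10), and Elk1 rose most with BSJ-04-0146 (0.59 ± 0.05, adjusted p = 4.6e-12).

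The cytoplasmic actin genes themselves were strongly lower with PROTAC FAK degrader 1. Actb, which encodes β-actin and is an SRF target itself, went from 2729 CPM with DMSO to 1200 CPM (-1.19 ± 0.03, adjusted p = 5.4e-28), and Actg1, for γ-actin, from 1423 to 872 CPM (-0.71 ± 0.03, adjusted p = 1.9e-22). Both also fell with GSK215 (-0.28 and -0.30) and BSJ-04-0146 (-0.28 and -0.16), which were given at a lower dose. Actb rose slightly with VS-4718 (0.14 ± 0.03, adjusted p = 8.7e-04), while Actg1 fell (-0.09 ± 0.03, adjusted p = 0.0203), as it did with defactinib (-0.15 ± 0.03, adjusted p = 3.4e-04). Acta1, for skeletal muscle actin, was given 11 to 39 counts per library and rose with BSJ-04-0146 (1.09 ± 0.27, adjusted p = 6.2e-04) and IN10018 (0.80 ± 0.27, adjusted p = 0.0408), while no library held over 6 counts of Actc1 or Actg2.

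Among 23 further actin-binding and contractile genes, VS-4718 raised 15 and lowered 2 (against 20.4% and 18.9% of all tested genes), with a median log2 fold change of 0.20, and PROTAC FAK degrader 1 raised 5 and lowered 14 (34.1% and 32.7%), with a median of -0.17. GSK215 raised 8 and lowered 12 (27.4% and 27.2%), BSJ-04-0146 raised 6 and lowered 11 (27.7% and 26.9%), GSK2256098 raised 8 and lowered 1 (6.36% and 6.09%), IN10018 raised 6 and lowered 2 (6.44% and 6.85%), and defactinib raised 3 and lowered 6 (11.4% and 11.0%). Flnc, the muscle-type filamin, fell with every drug, from -0.12 with GSK2256098 to -1.34 ± 0.04 with PROTAC FAK degrader 1 (adjusted p = 4.5e-28). It fell with BSJ-04-0146 by 1.16 and with GSK215 by 0.81, and with VS-4718, where Flna rose, by 0.41. The actin monomer-binding profilin gene Pfn1 (-0.84 ± 0.05, adjusted p = 9.2e-18) and the filament-disassembly cofactor gene Wdr1 (-0.75 ± 0.03, adjusted p = 2.6e-22) fell with PROTAC FAK degrader 1 and rose with VS-4718 (0.15 and 0.28). Csrp1, a LIM protein of actin bundles, rose with VS-4718 (0.84 ± 0.04, adjusted p = 9.1e-19) and with PROTAC FAK degrader 1 (0.81 ± 0.04, adjusted p = 3.0e-19), so genes of the list did not all follow Flna.

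Genes that regulate actin filaments and myosin were also examined. Arhgef2, which encodes the microtubule-bound exchange factor GEF-H1, rose from 263 to 683 CPM with PROTAC FAK degrader 1 (1.38 ± 0.03, adjusted p = 7.9e-33) and fell slightly with GSK215 (-0.22) and BSJ-04-0146 (-0.21). With PROTAC FAK degrader 1 the cofilin kinase gene Limk2 rose (0.80 ± 0.05, adjusted p = 7.7e-18) and the formin gene Diaph1 fell (-0.61 ± 0.04, adjusted p = 5.1e-18). Mylk, for the kinase that phosphorylates myosin light chains, rose with GSK215 (from 5.13 to 12.7 CPM; 1.30 ± 0.11, adjusted p = 1.2e-12) and BSJ-04-0146 (0.94 ± 0.12, adjusted p = 1.1e-08), and passed with no other drug. Other genes of this kind, named after their values were seen, fell with both of these degraders: the formin genes Diaph1 (-0.23 with GSK215 and -0.35 with BSJ-04-0146), Diaph2 (-0.34 and -0.36) and Diaph3 (-0.42 and -0.54), the kinase genes Rock1 (-0.22 and -0.33) and Rock2 (-0.28 and -0.35), and the cofilin gene Cfl2 (-0.39 and -0.31). Limk2 rose with both (0.18 and 0.19), and with PROTAC FAK degrader 1 Rock1 (0.13) and Rock2 (0.18) rose while Diaph3 (-0.58) and Cfl2 (-0.14) fell.

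**Figure D5:**
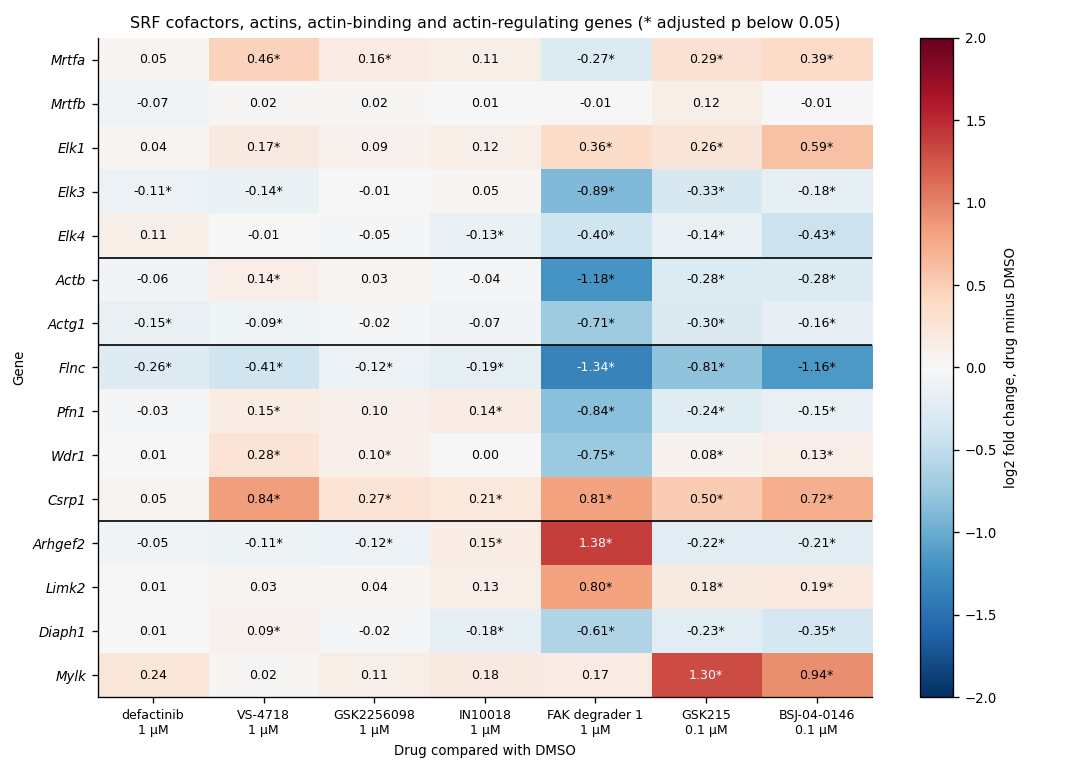
Log2 fold change against DMSO (color and printed value, asterisk for an adjusted p under 0.05) for SRF cofactors, cytoplasmic actins, actin-binding genes and actin-regulating genes (rows, in blocks divided by lines) and 7 drugs with their doses (columns). Actb (-1.19), Flnc (-1.34) and Arhgef2 (1.38) are the extreme values in the column of PROTAC FAK degrader 1.

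The 7 immediate-early genes listed as SRF targets through the Elk factors were counted beside the cytoskeletal targets. Of these PROTAC FAK degrader 1 raised 5 and lowered 1 (34.1% and 32.7% of all tested genes), BSJ-04-0146 raised 2 and lowered 3 (27.7% and 26.9%), GSK215 raised 1 and lowered 2 (27.4% and 27.2%), VS-4718 raised 1 and lowered 1 (20.4% and 18.9%), and GSK2256098 raised 1 (6.36%). With so few genes, counts such as those of BSJ-04-0146 lie near these shares. With edgeR none of the 7 passed for defactinib or for IN10018, where 1 each had an unadjusted p under 0.05, DESeq2 called 0 and limma-trend called 0 and 1. The transcription factor gene Egr1 rose with GSK215 from 9.13 to 21.3 CPM (1.22 ± 0.08, adjusted p = 3.0e-16), with PROTAC FAK degrader 1 (0.59 ± 0.08, adjusted p = 8.3e-08), with VS-4718 (0.52 ± 0.08, adjusted p = 1.8e-06) and with BSJ-04-0146 (0.35 ± 0.09, adjusted p = 7.8e-04). Ier2 fell with BSJ-04-0146 (-0.50 ± 0.07, adjusted p = 2.1e-07) and GSK215 (-0.46 ± 0.07, adjusted p = 7.7e-07) and rose with PROTAC FAK degrader 1 (0.16 ± 0.07, adjusted p = 0.0291). Genes at lower levels, named after their values were seen, also rose with PROTAC FAK degrader 1: Fos from 0.78 to 5.63 CPM (2.86 ± 0.24, adjusted p = 1.3e-13), Fosb (0.93) and Egr2 (1.64 ± 0.58, adjusted p = 0.0128). Egr2 held only 1 to 15 counts per library. Its mean was highest in this group (0.48 CPM, against 0.15 with DMSO), so it may have passed the filter on low counts only through it. Fosb fell with GSK215 (-1.43), BSJ-04-0146 (-0.81) and VS-4718 (-0.70). Mcl1, which encodes an anti-apoptotic protein, fell with PROTAC FAK degrader 1 by 0.17 on the log2 scale (adjusted p = 5.1e-05).

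Over the 24 libraries and among 9820 genes with a mean of at least 5 CPM, the genes whose log2(CPM + 4) level followed that of Srf most closely were Cdc42ep1 (Pearson r = 0.89), Src (0.88), Erf (0.88), Casc3 (0.88) and Ajuba (0.87). For Flna, which was added after its values were seen, they were Ptprf (0.99), Gon4l (0.98), Col5a2 (0.98), Ptprk (0.98) and Mgat1 (0.98). Between the members themselves, Srf followed Tpm1 (0.81) more closely than Flna (0.51), Cnn2 (0.39) or Vcl (0.36). Tpm2 ran against Srf (-0.49) and against Tpm1 (-0.68). These correlations describe libraries that share treatments and library preparation, and Acta2, with 4 counts or fewer, was too low for such a ranking.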

How the data were processed

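RNA was sequenced by a commercial service after poly(A) selection. Raw counts, as whole reads for each Ensembl gene in each library and not normalized, are the values that the authors deposited. The submitters' processing notes name Trimmomatic 0.36, STAR 2.5.2b, featureCounts of Subread 1.5.2 and GRCm38; the strand setting and gene annotation are not given in the sources used here. Positions and exon lengths came from GENCODE M21 (49056 of 49315 identifiers matched), and promoter windows from RefSeq. All 24 libraries were assigned by the library numbers in their labels.

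Counts were tested with edgeR 4.0.16 (R 4.3.3): TMM scaling, genes kept by filterByExpr (minimum count 10, minimum total 15; 16070 genes), 1 coefficient per group, 16 residual degrees of freedom, and two-sided quasi-likelihood tests. P-values were Benjamini-Hochberg adjusted within each drug against DMSO, or over all genes and 11 same-dose pairs together, with a threshold of 0.05. Each ± on a log2 fold change is its SE. With 3 libraries against 3, an exact permutation test on a single gene cannot go below 0.1 and was not used for calls. DESeq2 1.42.0, limma-trend 3.58.1 on log2(CPM + 4), library totals, no filter, a replicate block, the 6 libraries of a comparison alone, a 2-fold minimum and each library left out were tried as alternatives. The fit was tested on simulated counts first. Replicates of a group differed by more than sampling noise (chi-square per degree of freedom 1.74 to 8.81 over 24 pairs), so none was a copy. The labels number the replicates as biological without stating how the cultures were kept apart, so p-values measure the spread between these cultures of 1 line.

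The members and lists were chosen with earlier results of these data known. Named genes were all members and SRF cofactors, and from each other list at most 4 genes past the threshold with the largest change against DMSO in any drug and a mean of at least 5 CPM, plus the 5 genes most like Srf. Further genes that the text names, such as family members of those above and the 5 most like Flna, were added after their values were seen. The same ranking planned for Acta2 was not made because of its counts. Marker genes were named to check the cell line's label; some listed genes and 1 list are not reported here. No other experiment of the study was used here.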

Additional observations from a re-analysis of the deposited data

How the results depend on the processing

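Of 56 single results against DMSO, 37 kept their direction and their side of the threshold under every alternative run, as did 53 of the 60 differences between drugs that had passed; differences between drugs that had not passed were not followed singly. A minimum change of 2-fold left 2 genes each for PROTAC FAK degrader 1, GSK215 and BSJ-04-0146, 1 each for VS-4718 and defactinib, and 0 each for IN10018 and GSK2256098. The genes left were Tpm2 with the degraders and Myl9, at 3 to 72 counts per library, wherever any gene was left. The share of all tested genes past this minimum was not counted, so these counts stand without a background. For GSK2256098 the count of 5 became 3 with no filter, 3 with limma-trend and 3 with DESeq2, and ranged from 1 (without GSK2256098 replicate 3) to 4 on leaving out a library, with 2 without GSK2256098 replicate 1, DMSO replicate 2 or DMSO replicate 3. For GSK2256098 minus defactinib the count of 4 ranged from 2 to 5. Library totals alone reversed Srf with PROTAC FAK degrader 1 (0.0207), GSK215 (0.0342) and BSJ-04-0146 (0.00258), and Flna with BSJ-04-0146 (0.0422); that scaling moves all genes of these drugs upward. Leaving out a library turned the sign of some log2 fold changes near 0 that had not passed. They are given here with their ranges over all 12 alternatives, or 11 for Tagln. With defactinib these were Tpm2 (-8.127e-05 to 0.0937), Cnn2 (-0.0285 to 0.0483), Vcl (-0.00936 to 0.0422) and Srf (-0.0119 to 0.0426). The others were Tagln with GSK2256098 (-0.183 to 0.536), PROTAC FAK degrader 1 (-0.845 to 0.226) and BSJ-04-0146 (-0.869 to 0.110). The cause was not tested. With the replicate block the count for GSK2256098 was 4, since Srf was lost (adjusted p = 0.0552), the difference in Srf between PROTAC FAK degrader 1 and IN10018 was lost (0.0558), and no other of these 56 results and 60 differences changed its call. Replicate numbers did not pair the libraries: of 21 correlations of same-numbered deviations, from -0.183 to 0.153, 1 exceeded 0.1. Depth limits Acta2, Cnn1, Tagln and Myl9, where a few reads set each value.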
